A study of Mus musculus with 36 samples.

Results

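The genes of the phagocyte NADPH oxidase and of the Fc gamma receptors were followed in mouse lung after exposure to crude oil and oil dispersants. The 9 genes were chosen by symbol: the oxidase subunits Cybb, Cyba, Ncf1 and Ncf4, the IgG receptors Fcgr1, Fcgr2b, Fcgr3 and Fcgr4, and Fcer1g, the signaling chain of the activating receptors. All 9 were found among the 18120 rows of the count table of female mice and among the 18295 rows of the table of male mice. The RNA came from the whole left lung of 36 wild-type C57BL/6 mice, that is 3 female and 3 male mice for each of 6 treatments. The groups received saline, MC252 oil (crude oil of the Macondo well), Corexit 9500, Corexit 9527, 9500+oil or 9527+oil, the Corexits being commercial dispersants used on oil spills. The mice were bought at 7 weeks of age and acclimated for 1 week, dosed on days 0, 7 and 13 with 50 µL of an aqueous fraction of each agent at a concentration of 0.1, and killed on day 14. The GEO labels call the route intratracheal instillation and the material a water-accommodated fraction, whereas the methods of the study describe oropharyngeal aspiration of fractions made in buffered saline. Male and female mice were treated separately and their counts stand in separate tables, so sex, table and treatment run cannot be told apart.

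The phagocyte oxidase passes electrons from NADPH across a membrane to oxygen and so makes superoxide, with which neutrophils, monocytes and macrophages attack what they engulf. Cybb encodes its catalytic subunit NOX2 and Cyba the p22phox chain that stabilizes NOX2 in the membrane, while Ncf1 (p47phox) and Ncf4 (p40phox) encode cytosolic subunits that assemble on them when the cell is activated. Fc gamma receptors bind the constant part of IgG on coated particles: Fcgr1 is the high-affinity receptor, Fcgr3 and Fcgr4 are activating receptors of lower affinity, and Fcgr2b is the inhibitory receptor. The activating receptors signal through the ITAM motif of the chain encoded by Fcer1g, and their engagement triggers phagocytosis and oxidase activity.

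The sequence shared by Fcgr2b and Fcgr3 is shown because it bears on how far their counts can be told apart. Among the 4 receptors, the coding sequences of Fcgr2b and Fcgr3 were the most alike, identical at 83.6% of 794 aligned bases, against 60.2 to 63.3% in the other 5 pairs. The longest run that both hold unchanged is 129 bases long and covers bases 278 to 406 of the Fcgr2b coding sequence and bases 263 to 391 of that of Fcgr3. It is written in the direction of both genes, from the GENCODE M21 transcripts.
Fcgr2b and Fcgr3: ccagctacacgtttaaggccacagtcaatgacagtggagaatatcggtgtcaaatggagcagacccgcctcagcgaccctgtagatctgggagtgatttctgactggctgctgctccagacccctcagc
Of all the 31-base words in the longest coding transcript of Fcgr3, 17.7% also occurred in transcripts of Fcgr2b. Of those in the longest coding transcript of Fcgr2b, 7.04% occurred in transcripts of Fcgr3 and 9.79% in those of any other gene. The levels of these receptors therefore rest in part on how the estimation of counts divided the reads they share.

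The promoters are shown because the members were compared as a group that may share letters near their starts. RefSeq sequence of the GRCm38.p6 build was matched for 8 of the 9 genes, and Ncf4 was not matched. Windows of 250 bases before to 50 bases after each start were searched for GAGGAA, the core bound by the myeloid factor PU.1 (encoded by Spi1), and for TTCNNNGAA, a core bound by STAT factors, each on both strands. The second motif reads the same on both strands, and no match of one overlapped a match of the other. GAGGAA was found in 4 of the 8 members, Cybb, Fcgr1, Fcgr3 and Fcgr4, and in 28.3% of all 32851 promoter windows. The members were counted by gene and the background by window, and a gene can have several windows, as Fcgr3 with its 2 start sites. TTCNNNGAA was found in Ncf1 and Fcgr1, and in 8.30% of all windows. The 120 bases before the start of the 4 genes with a match in that stretch are given on the strand of the gene, with the matched letters in capitals. GAGGAA appears there as TTCCTC because it lies on the opposite strand.
Fcgr4, chr1:171018806-171018925, plus strand: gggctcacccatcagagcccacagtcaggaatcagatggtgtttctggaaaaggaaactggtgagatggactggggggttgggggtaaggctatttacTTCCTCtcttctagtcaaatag
Fcgr3, chr1:171059395-171059514, minus strand: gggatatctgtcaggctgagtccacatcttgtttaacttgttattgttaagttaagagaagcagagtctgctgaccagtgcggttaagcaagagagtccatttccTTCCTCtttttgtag
Fcgr1, chr3:96293970-96294089, minus strand: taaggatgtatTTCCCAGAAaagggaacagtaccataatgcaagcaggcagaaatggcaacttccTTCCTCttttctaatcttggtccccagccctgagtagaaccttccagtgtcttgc
Ncf1, chr5:134229626-134229745, minus strand: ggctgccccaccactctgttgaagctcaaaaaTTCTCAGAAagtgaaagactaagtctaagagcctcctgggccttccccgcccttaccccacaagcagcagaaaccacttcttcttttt
The matches describe letters and not bound sites. The GAGGAA match began 22 bases before the start in Fcgr4, 15 bases before it in Fcgr3 (6 bases before the other start of that gene) and 55 bases before it in Fcgr1, and in Cybb it lay after the start.

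In GENCODE M21 (GRCm38), Fcgr2b, Fcgr4, Fcgr3 and Fcer1g lie within 275.7 kb of each other on chromosome 1, between bases 170958617 and 171234365. Fcgr1 lies apart from them on chromosome 3 (96282909 to 96293969). The oxidase genes are scattered, with Cybb on chromosome X (9435252 to 9487771), Cyba on chromosome 8 (122424776 to 122432930), Ncf1 on chromosome 5 (134220053 to 134229625) and Ncf4 on chromosome 15 (78244801 to 78262580). Each count covers the transcripts of the whole gene and not a particular exon.

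Each library held between 17501716 and 30014986 counts, of which the 9 genes together took 0.0222 to 0.0714%. The samples held lung epithelium as labeled, with none of the 8 epithelial markers at 0 in over 50% of the mice of either sex and a summed level of 29861 to 40451 CPM (counts in proportion to the library's effective total, on the usual CPM scale) in male mice. In female mice it was 22045 to 41945 CPM without 4 libraries that stood apart and reached down to 13129 CPM with them. In those 4 female libraries mitochondrial genes took 20.7 to 45.1% of the counts, against 6.16 to 11.3% in the other 14 female and 5.27 to 7.68% in the 18 male libraries. The 4 were saline mouse 3, oil mouse 6, Corexit 9527 mouse 11 and 9500+oil mouse 14. Values without these libraries are therefore given beside many of the results in female mice and over both sexes.

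The 4 female libraries departed from the rest in step with base composition. For each library, the log2 ratio of its level to the median of the other 14 female libraries (1 CPM added to both) was set against the GC content of the transcript. Pearson's r over the 9 genes was -0.69 in saline mouse 3, -0.83 in oil mouse 6, -0.85 in Corexit 9527 mouse 11 and -0.87 in 9500+oil mouse 14. Over 10988 genes it was -0.64, -0.73, -0.70 and -0.75 for the same libraries in that order, of the same sign as over the members. Their part in each result was not tested beyond leaving the libraries out. These correlations are across genes, which share a library and are not independent replicates.

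Cyba, with the highest GC content of the members (59.3%), was not counted in saline mouse 3, where 3 counts would have been 0.352 CPM. It stood at 9.93 CPM in oil mouse 6, at 3.94 CPM in Corexit 9527 mouse 11 and at 8.66 CPM in 9500+oil mouse 14, all far below the 32.9 to 62.6 CPM of the other 14 female mice. Fcgr2b, with 45.4% GC, reached 255.7 CPM in saline mouse 3 and 146.3 CPM in Corexit 9527 mouse 11, against 33.7 to 120.0 CPM in the other 14. Fcgr4 broke the order, since at 48.2% GC it also had no count in saline mouse 3 and 5.59 to 15.3 CPM in the other 14. Ncf4 (55.7% GC) was below the 10.4 to 18.8 CPM of the other 14 in all 4 libraries, with 2.11 CPM in saline mouse 3, and Fcer1g was below its range of 32.0 to 122.9 CPM in saline mouse 3 alone (21.0 CPM). Ncf1 was below its range of 27.0 to 62.0 CPM in saline mouse 3 (24.0 CPM) and Corexit 9527 mouse 11 (23.8 CPM). Saline mouse 3 is 1 of the 3 controls of every female comparison.

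**Figure D1:**
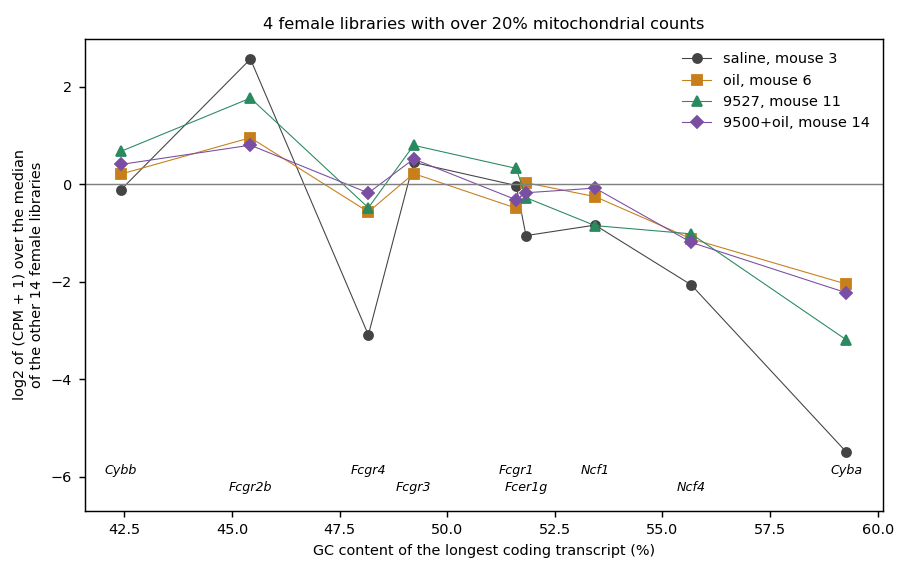
Log2 ratio of each gene's level (CPM + 1) in the 4 female libraries with over 20% mitochondrial counts to the median of the other 14 female libraries (vertical axis), against the GC content of its longest coding transcript in percent (horizontal axis). Lines join the 9 genes of a library, and all 4 run from near or above 0 at Cybb and Fcgr2b to their lowest point at Cyba.

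In the saline male mice, levels per kilobase of transcript ordered the members as follows. Cyba stood highest at 98.6 ± 6.69 CPM per kb (SD, n = 3) and Fcer1g next at 82.5 ± 11.9 CPM per kb, with overlapping ranges. A gap then led to Fcgr3 (29.0 ± 0.275 CPM per kb), Cybb (24.8 ± 4.95 CPM per kb), Ncf1 (16.3 ± 2.67 CPM per kb), Fcgr2b (12.6 ± 2.30 CPM per kb) and Ncf4 (12.3 ± 2.73 CPM per kb), each overlapping its neighbor in this order. Fcgr4 (8.35 ± 1.13 CPM per kb) and the high-affinity receptor Fcgr1 (2.41 ± 0.192 CPM per kb) were the lowest, each below the range of the gene before it. The shared chains of the membrane complexes, p22phox and the Fc receptor gamma chain, were thus higher per length than the subunits and receptors they pair with. In the 2 saline female mice other than mouse 3, Cyba (mean of 70.5 CPM per kb) and Fcer1g (67.8 CPM per kb) also led, and Fcgr4 (7.44 CPM per kb) and Fcgr1 (1.55 CPM per kb) came last.

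**Figure D2:**
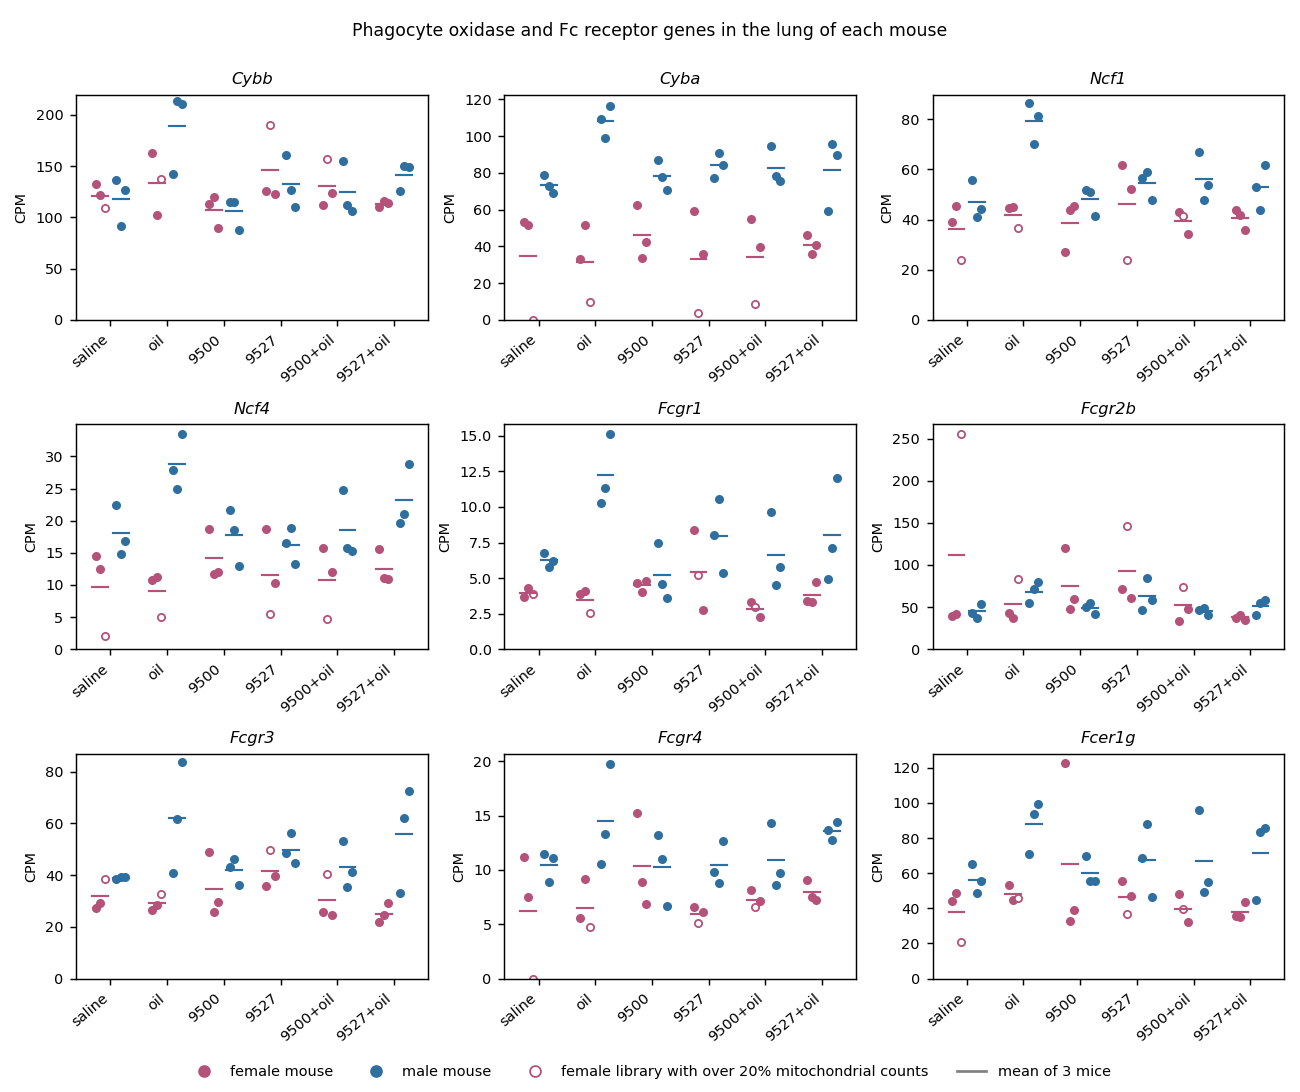
Level of each of the 9 genes in CPM (vertical axes, starting at 0) in every mouse, by treatment (horizontal axes) and sex. Points are mice, open points the 4 female libraries with over 20% mitochondrial counts and lines the means of 3 mice. The 3 oil-treated male mice stand above the 3 saline male mice in 8 of the 9 panels, with Fcgr4 the exception, and no such gap is seen in female mice.

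The comparison of oil with saline in male mice asked whether the oil fraction by itself altered these genes. All 9 were higher in the oil group (47.1% of genes were higher), with log2 fold changes of 0.47 to 0.97 and a median of 0.67. In 8 of the 9 every oil-treated male mouse exceeded every saline male mouse, which held for 7.28% of the 14914 genes tested. The same 8 had an unadjusted p under 0.05 in edgeR's quasi-likelihood test and were higher, as did 5.75% of all genes (8.21% in either direction). None of the 9 passed an adjusted p of 0.05 in that test, which called 0.00671% of genes, a single gene. DESeq2's Wald test on the same counts called 5 of the 9, Ncf1 (adjusted p = 0.000478), Cyba (0.000672), Fcgr1 (0.00351), Fcer1g (0.0166) and Cybb (0.042), against 1.25% of all genes, and limma voom called none. The log2 fold change of Fcgr3, where the settings differed most, ran from 0.60 to 0.67 over the tools, scalings and filters tried with all 6 mice.

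Among the oxidase genes, the catalytic subunit Cybb measured 136.2, 91.4 and 126.3 CPM in the saline male mice and 141.9, 213.1 and 211.1 CPM in the oil-treated male mice. The lowest oil-treated mouse stood just above the highest saline mouse, and the log2 fold change was 0.67 (SE 0.19, edgeR adjusted p = 0.374). Its membrane partner Cyba measured 78.6, 72.6 and 68.7 CPM with saline and 109.1, 99.0 and 116.4 CPM with oil. The groups were well apart and the spread small, giving a log2 fold change of 0.56 with the smallest error of the 9 (SE 0.098, edgeR adjusted p = 0.191).

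Ncf1, the subunit whose phosphorylation starts assembly, measured 55.8, 41.2 and 44.4 CPM in the saline male mice and 86.6, 70.2 and 81.3 CPM in the oil-treated male mice. It had the largest difference of the oxidase genes, 0.75 on the log2 scale (SE 0.13, edgeR adjusted p = 0.207). Ncf4, which binds a lipid of the phagosome membrane, measured 22.5, 14.8 and 16.8 CPM with saline and 27.9, 25.0 and 33.4 CPM with oil, a log2 fold change of 0.67 (SE 0.18, edgeR adjusted p = 0.34). In both cytosolic subunits the groups did not overlap.

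Among the receptors, Fcgr1 had the largest difference of all 9 genes. It measured 6.76, 5.77 and 6.19 CPM in the saline male mice and 10.3, 11.3 and 15.2 CPM in the oil-treated male mice, a fold of 1.96 (log2 0.97, SE 0.18, edgeR adjusted p = 0.235). The inhibitory receptor Fcgr2b measured 43.3, 37.4 and 53.5 CPM with saline and 54.4, 71.5 and 79.6 CPM with oil (log2 fold change 0.61, SE 0.17, edgeR adjusted p = 0.365). The lowest oil-treated mouse exceeded the highest saline mouse by under 1 CPM in Fcgr2b, whereas in Fcgr1 the gap was wide for so low a gene.

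The activating receptor Fcgr3 measured 38.6, 39.2 and 39.3 CPM in the saline male mice and 40.8, 61.6 and 83.9 CPM in the oil-treated male mice (log2 fold change 0.67, SE 0.22, edgeR adjusted p = 0.459). The saline mice were nearly equal, and the oil-treated mice ran from just above them to 83.9 CPM. Fcgr4 measured 11.5, 8.87 and 11.1 CPM with saline and 10.5, 13.3 and 19.7 CPM with oil, so its groups overlapped (log2 fold change 0.47, SE 0.23, edgeR adjusted p = 0.665). Without oil mouse 6 the log2 fold change of Fcgr4 was 0.18 and that of Fcgr3 0.39, the lowest values of each when any mouse was left out. Fcer1g, the chain through which the activating receptors signal, measured 65.0, 48.8 and 55.3 CPM with saline and 71.0, 93.6 and 99.3 CPM with oil, with no overlap (log2 fold change 0.64, SE 0.15, edgeR adjusted p = 0.319).

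The balance of the receptors was described by their ratio to Fcgr2b in each mouse (log2, 0.5 CPM added to both). For Fcgr3 it was -0.18 ± 0.25 in the saline and -0.18 ± 0.24 in the oil-treated male mice (SD, n = 3 each). For Fcgr1 it was -2.73 ± 0.24 and -2.44 ± 0.15, and for Fcgr4 -2.03 ± 0.17 and -2.23 ± 0.21. The ratio of Fcgr1 differed most between the groups, by more than the SD of either, and these ratios were not tested.

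Genes that work with the members were counted in the same comparison, and none of those described here passed an adjusted p of 0.05 in edgeR. Of all 14914 genes, 47.1% were higher in oil-treated male mice. An unadjusted p under 0.05 was found with a higher level in 5.75% of genes and in either direction in 8.21%. Of 10 other parts and activators of the oxidase, 8 were higher and 2 lower in oil-treated male mice, and 5 of the 8 had an unadjusted p under 0.05. Among these 5 were Prkcd, a kinase that phosphorylates Ncf1 (log2 fold change 0.35, adjusted p = 0.319), and Rac2, the small GTPase of the complex (0.68, adjusted p = 0.406). Of 5 tested genes of other NADPH oxidases and their partners, 3 were higher and 2 lower, with Noxo1, an organizer of NOX1, the only one with an unadjusted p under 0.05 (0.57, adjusted p = 0.451), followed by Nox4 (-0.25, adjusted p = 0.729) and Noxa1 (0.32, adjusted p = 0.841).

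All 14 kinases, adaptors and effectors downstream of ITAM receptors were higher in oil-treated male mice (47.1% of genes were). An unadjusted p under 0.05 was found for 9 of them (5.75% of genes were higher with one). They included Lcp2 (log2 fold change 0.71, adjusted p = 0.319), Fgr (0.85, adjusted p = 0.319) and Syk (0.51, adjusted p = 0.337), the kinase recruited to the ITAM of Fcer1g. Of 7 genes of the inhibitory branch 6 were higher, with Ptpn6, the phosphatase SHP-1 (0.54, adjusted p = 0.319), and Dok2 (0.66, adjusted p = 0.576) past the unadjusted threshold, and Ptpn11, the phosphatase SHP-2, at -0.17 (adjusted p = 0.676). Of 6 other antibody receptors 5 were higher, and Pigr, the epithelial receptor for polymeric IgA and IgM, alone had an unadjusted p under 0.05 (0.97, adjusted p = 0.374). Fcgrt, the neonatal IgG receptor, stood at 0.25 (adjusted p = 0.651) and Ms4a2, the beta chain of the IgE receptor, at 1.04 (adjusted p = 0.68). All 4 IgG heavy chain genes, the ligands, were lower with a median log2 fold change of -0.71, among them Ighg2b (-0.66), Ighg1 (-0.82) and Ighg2c (-0.75), and none had an unadjusted p under 0.05, at summed levels of 3.48 to 15.1 CPM with saline and 4.05 to 6.20 CPM with oil. Of 7 tested myeloid transcription factors 6 were higher, 3 of them with an unadjusted p under 0.05: Spi1, which encodes PU.1 (0.71, adjusted p = 0.319), Cebpb (0.41, adjusted p = 0.417) and Irf8 (0.33, adjusted p = 0.53).

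Markers of the cells that carry these receptors were counted in the same comparison, where 47.1% of all genes were higher and 5.75% were higher with an unadjusted p under 0.05. Of 11 tested macrophage markers 10 were higher in oil-treated male mice, 8 with an unadjusted p under 0.05, led by Cd68 (log2 fold change 1.00), C1qb (1.10) and C1qa (1.03). Their median log2 fold change was 0.66, beside 0.67 for the members, and their summed level was 6139 to 6544 CPM with saline and 6722 to 8768 CPM with oil. Of 12 neutrophil markers 9 were higher, 6 with an unadjusted p under 0.05, led by Mmp9 (1.23), S100a8 (1.25) and Csf3r (1.21), with a median of 0.93 and summed levels of 335 to 364 and 416 to 1162 CPM. All 6 monocyte markers were higher, 3 with an unadjusted p under 0.05 (Cx3cr1, 0.55, Ly6c2, 0.71, and Ccr2, 1.15), with summed levels of 138 to 231 and 217 to 417 CPM that overlapped. None of these lists had a marker at 0 in over 50% of the male mice, and Adgre1 was not among the rows used. In whole lung RNA, more cells of a type and more RNA per cell cannot be told apart.

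Of 10 alveolar macrophage markers 7 were higher and 3 lower, with Marco (log2 fold change 1.93, adjusted p = 0.256) and Krt79 (0.84, adjusted p = 0.318) higher and Fabp1 lower (fold 0.499, adjusted p = 0.256), and a summed level of 657 to 852 CPM with saline and 914 to 1003 CPM with oil. All 5 pan-leukocyte genes were higher, 2 with an unadjusted p under 0.05 (Cd52, 0.80, and Laptm5, 0.50), with summed levels of 586 to 843 and 851 to 1068 CPM. Of all genes, 47.1% were higher and 5.75% were higher with an unadjusted p under 0.05. The markers of B cells (5 of 7 higher) and natural killer cells (4 of 7 higher) gave no gene with an unadjusted p under 0.05, T cells gave 1 (Cd4, 0.44) and dendritic cells 1 (Flt3, 0.55). Mast cell and basophil markers (1 of 3 tested higher) and epithelial markers (3 of 8 higher) gave none. All 7 endothelial markers were lower without an unadjusted p under 0.05, with summed levels of 4892 to 5466 CPM with saline and 4602 to 4810 CPM with oil.

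Set against these cells, the 9 genes summed to 360 to 458 CPM in the saline and 552 to 740 CPM in the oil-treated male mice. Their sum divided by that of the macrophage markers was 0.0557 to 0.0700 with saline and 0.0822 to 0.0844 with oil. Divided by that of the pan-leukocyte genes it was 0.544 to 0.615 and 0.649 to 0.693, and by that of the neutrophil markers 1.05 to 1.26 and 0.637 to 1.33. Divided by the monocyte markers it was 1.98 to 2.61 and 1.77 to 2.55, and by the alveolar macrophage markers 0.495 to 0.698 and 0.605 to 0.738. The ratios of the groups thus did not overlap for the macrophage and pan-leukocyte genes and overlapped for the neutrophil, monocyte and alveolar macrophage genes. The sum of the macrophage markers is set by its most abundant genes, whereas over single markers their median difference was like that of the members. The part of the cell markers in the higher levels of the members was not tested beyond these ratios.

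**Figure D3:**
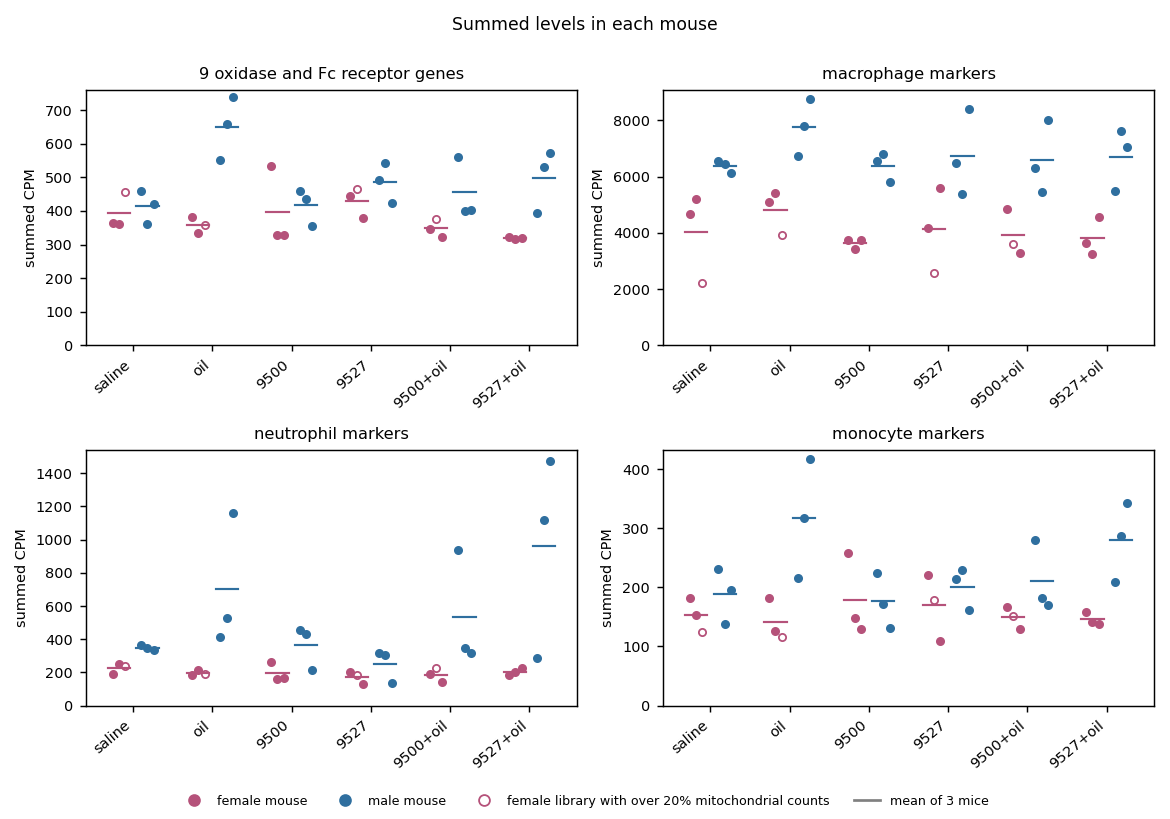
Summed level in CPM (vertical axes, starting at 0) of the 9 members and of the macrophage, neutrophil and monocyte markers in each mouse, by treatment (horizontal axes) and sex, with lines at the means of 3 mice and open points for the 4 female libraries. The members reach 552 to 740 CPM in oil-treated male mice against 360 to 458 CPM in saline male mice, and the macrophage and neutrophil sums of these groups also stand apart.

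In the test of any difference among the 6 male groups, 6 of the 9 genes had an unadjusted p under 0.05 in edgeR (Cybb, Cyba, Ncf1, Ncf4, Fcgr1 and Fcgr2b), as did 10.4% of genes. None passed the adjusted threshold, which 0.135% of genes did, and the smallest adjusted p was that of Ncf1 (0.144). DESeq2's likelihood ratio test called Ncf1 (adjusted p = 0.00148) and Cybb (adjusted p = 0.0191), with 3.94% of genes called. In the 6 female groups no member had an unadjusted p under 0.05 in edgeR (1.35% of genes) and none was called (0.0129% of genes). In limma voom 3 members had one, with 1123 of 15526 genes called but no member. Without the 4 libraries 1 member had one in edgeR, with 0 genes called.

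In female mice the 9 genes were split in direction with oil. Of these, 4 were higher and 5 lower than with saline (49.2% of 14837 genes were higher), with a median log2 fold change of -0.11. No member passed the adjusted threshold in edgeR (0% of genes), DESeq2 or limma voom, and none had an unadjusted p under 0.05 in edgeR (0.108% of genes). The errors were wide where saline mouse 3 was extreme, as for Cyba (-0.14) and for Fcgr2b, whose log2 fold change of -1.17 (SE 0.87, edgeR adjusted p = 1) became -0.01 without the 4 libraries. Without them the 9 log2 fold changes lay between -0.34 and 0.09.

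The levels in the female mice show the same. Cybb measured 132.6, 121.4 and 109.6 CPM in the saline and 162.4, 102.4 and 137.0 CPM in the oil-treated female mice, and Ncf1 measured 39.2, 45.3 and 24.0 CPM and 44.6, 45.0 and 36.5 CPM. Fcgr1, the gene with the largest difference in male mice, measured 3.69, 4.34 and 3.87 CPM with saline and 3.85, 4.09 and 2.53 CPM with oil. Fcer1g measured 44.2, 48.5 and 21.0 CPM and 53.4, 45.0 and 45.6 CPM. In each of these the groups overlapped. None of the other genes of the pathway or the cell markers had an unadjusted p under 0.05 in oil-treated female mice.

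The difference between the sexes was itself tested as the interaction of sex and oil. It was in the direction of a larger fold change in male mice for all 9 genes, as for 47.6% of 15376 genes. None passed the adjusted threshold in edgeR (0% of genes), DESeq2 or limma voom, and 1 had an unadjusted p under 0.05 in edgeR (1.65% of genes), Fcgr1 with a difference in log2 fold change of 1.16 (SE 0.41, adjusted p = 1). Without the 4 female libraries the 9 differences ran from 0.56 to 0.99 (50% of genes were above 0) and 6 had an unadjusted p under 0.05 (5.98% of genes), with a lowest adjusted p of 0.762. Over all the tools, settings and left-out mice tried, the lowest adjusted p of any member was 0.0611, that of Ncf4. Fcgr4 was the member whose direction hung on 1 mouse, since without saline female mouse 1 its difference was -0.28. For the other 4 treatments no interaction of a member had an unadjusted p under 0.05 in edgeR with TMM scaling on all mice of the groups compared (0.352 to 2.39% of genes). Fcgr3 with 9527+oil lay at that threshold, with a difference of 0.85 (SE 0.39, unadjusted p = 0.0501 in that edgeR fit).

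**Figure D4:**
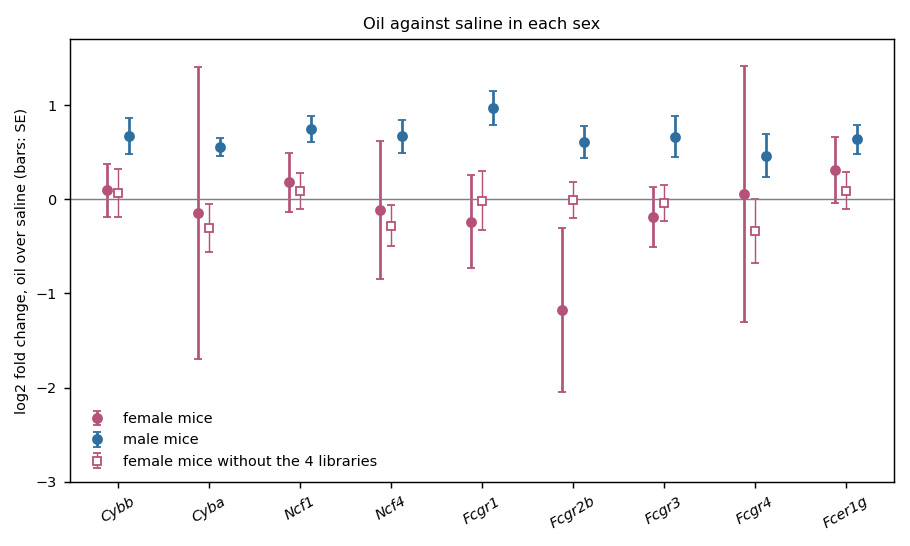
Log2 fold change of oil over saline (vertical axis) of each of the 9 genes (horizontal axis) in male mice, in female mice and in female mice without the 4 libraries, with bars for 1 SE of the edgeR fit. The male values lie between 0.47 and 0.97 and the female values without the 4 libraries between -0.34 and 0.09.

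The dispersants by themselves were compared with saline in each sex. With Corexit 9500, 5 members were higher and 4 lower in male mice (48.1% of genes higher, members at -0.26 to 0.12 on the log2 scale), and none had an unadjusted p under 0.05 (6.35% of genes) or passed the adjusted threshold in edgeR (0.00662% of genes). In female mice 7 were higher and 2 lower (56.5% of genes higher), again with none past either threshold in edgeR (0.364% of genes unadjusted, 0% adjusted). Without saline mouse 3, 6 were higher and 3 lower (-0.24 to 0.91), and Fcgr2b stood at 0.91 (SE 0.42, edgeR adjusted p = 1) in place of -0.57, so that library set its direction. In limma voom 4 were higher and 5 lower with all mice. The largest value with all mice, Fcer1g (0.78, SE 0.62, edgeR adjusted p = 1), came from mouse 7, with 122.9 CPM against 32.8 and 39.3 CPM in its group. The same mouse had the highest Fcgr2b (120.0 CPM), Fcgr3 (48.8 CPM) and Fcgr4 (15.3 CPM) of the 14 female mice outside the 4 libraries, and the lowest Ncf1 (27.0 CPM).

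With Corexit 9527, 7 members were higher and 2 lower in male mice (48.3% of genes higher). Fcgr3 measured 48.5, 56.4 and 44.8 CPM in the treated male mice, all above the 38.6 to 39.3 CPM of the saline male mice. It was the 1 member whose groups did not overlap with the treated mice above, as in 10.7% of genes, and the 1 with an unadjusted p under 0.05, as in 13.7% of genes (log2 fold change 0.36, SE 0.11, edgeR adjusted p = 0.213). No member was called (0.114% of genes). In the same male mice 9 of 11 macrophage markers were higher, 7 with an unadjusted p under 0.05, and Cd68 rose by 0.83 on the log2 scale (edgeR adjusted p = 0.0468), while their summed levels overlapped (5380 to 8390 CPM against 6139 to 6544 CPM with saline). The alveolar macrophage markers summed to 844 to 1587 CPM in these male mice against 657 to 852 CPM with saline, and to 1267 to 2151 CPM against 686 to 1132 CPM in female mice. Their part in the level of Fcgr3 was not tested. In female mice 6 members were higher and 3 lower with Corexit 9527 (54% of genes higher) and none had an unadjusted p under 0.05 (0.267% of genes). In limma voom 4 were higher and 5 lower. Without the 4 libraries 6 were again higher and 3 lower in edgeR, and Fcgr2b stood at 0.72 (SE 0.18, edgeR adjusted p = 0.561) in place of -0.30.

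With both sexes in 1 fit, Fcgr3 was again the member with an unadjusted p under 0.05 for Corexit 9527 (log2 fold change 0.37, SE 0.15, edgeR adjusted p = 1), where 2.86% of genes had one and 0.0326% were called. In female mice it measured 27.5, 29.4 and 38.7 CPM with saline and 35.8, 49.6 and 39.6 CPM with Corexit 9527. This call changed with the libraries kept and with the tool. With the 4 libraries left out, the log2 fold change was 0.38 with an edgeR adjusted p of 0.0404 (2.13% of genes called), and limma voom with sample weights gave an adjusted p of 0.00916 with all mice (5.19% of genes called). Between the dispersants, 9527 over 9500, Cybb differed by 0.38 (SE 0.17, edgeR adjusted p = 0.8), where 3.33% of genes had an unadjusted p under 0.05 and 0% were called. With the 4 female libraries left out it was 0.27 (adjusted p = 0.911).

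The mixtures held a dispersant and the same oil. With 9500+oil all 9 members were higher than with saline in male mice, by 0.02 to 0.25 on the log2 scale (49.2% of genes higher), and none had an unadjusted p under 0.05 (9.22% of genes) or was called by edgeR (0% of genes), DESeq2 or limma voom. In limma voom 6 were higher and 3, Fcgr1, Fcgr4 and Ncf4, lower, the lowest at -0.02. With 9527+oil all 9 were higher (49.4% of genes higher) with a median log2 fold change of 0.34. Fcgr4 measured 13.7, 12.7 and 14.4 CPM, above the 8.87 to 11.5 CPM of every saline male mouse, as in 5.74% of genes (log2 fold change 0.37, SE 0.15, edgeR adjusted p = 0.885). It was the 1 member with an unadjusted p under 0.05 in edgeR (5.54% of genes), and none was called in that test (0.00669% of genes).

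The 9527+oil male mice were uneven. Mouse 16 had 33.1 CPM of Fcgr3 and the other two 61.9 and 72.6 CPM, and the same mouse had the lowest Cyba (59.3 CPM) and Fcer1g (44.6 CPM) of the group. Without mouse 16, Fcgr3 passed the threshold (log2 fold change 0.78, edgeR adjusted p = 0.0303, 0.357% of genes called). With all mice of this group, 49.4% of all genes were higher than with saline and 5.54% had an unadjusted p under 0.05. In this group 9 of 11 tested neutrophil markers were higher than with saline, 8 with an unadjusted p under 0.05, with a median log2 fold change of 1.54 and a summed level of 285 to 1474 CPM against 335 to 364 CPM. All 11 tested macrophage markers were higher as well, 5 with an unadjusted p under 0.05, with a median of 0.22 and a summed level of 5480 to 7628 CPM against 6139 to 6544 CPM. The part of these cells in the levels of the members was not tested. Whether oil and the mixtures differ from each other was not tested.

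In female mice, 5 members were higher and 4 lower with 9500+oil, and 4 higher and 5 lower with 9527+oil (55.6% of genes higher in each), none with an unadjusted p under 0.05 (0.155% and 1.1% of genes). Fcgr1 lay below every saline mouse with 9500+oil, as did 0.798% of genes, at 3.30, 2.97 and 2.28 CPM against 3.69 to 4.34 CPM. Without the 4 libraries, 2 members were higher and 7 lower with 9500+oil, at -0.52 to 0.05 on the log2 scale. Fcgr2b had a log2 fold change of -1.59 with 9527+oil (SE 0.80, edgeR adjusted p = 0.914), which was -0.09 without saline mouse 3. Without that library all 9 members were lower with 9527+oil, by -0.36 to -0.06 on the log2 scale, where 48.5% of genes were higher, and 1 had an unadjusted p under 0.05 (12.3% of genes).

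Oil added to a dispersant was tested in both sexes together. For 9500+oil over Corexit 9500, 2 members were higher and 7 lower (53.1% of genes higher, members at -0.32 to 0.26 on the log2 scale), with none past an unadjusted p of 0.05 (1.95% of genes), and without the 4 libraries 4 were higher and 5 lower (-0.44 to 0.19). For 9527+oil over Corexit 9527, Fcgr2b was lower by -0.79 (SE 0.27, edgeR adjusted p = 0.273) and Fcgr4 higher by 0.41 (SE 0.15, edgeR adjusted p = 0.279), where 14.1% of genes had an unadjusted p under 0.05 and 0.559% were called. Without the 4 libraries Fcgr2b was at -0.53 (SE 0.16, edgeR adjusted p = 0.0653) and Fcgr4 at 0.36 (SE 0.12, edgeR adjusted p = 0.0867). Fcgr4 passed the adjusted threshold in limma voom (0.43, adjusted p = 0.034, 10.2% of genes called). Fcgr2b passed it in none of the alternative settings, over which its log2 fold change ran from -0.84 to -0.35. Oil over saline in both sexes gave 8 members higher and 1 lower (51.8% of genes higher), with an unadjusted p under 0.05 for Cybb (0.40), Ncf1 (0.47) and Fcer1g (0.48) as in 0.442% of genes, and none called in edgeR (0% of genes). Without the 4 libraries all 9 were higher in that fit, by 0.15 to 0.59, where 50% of genes were higher. Against saline in both sexes, no member had an unadjusted p under 0.05 with Corexit 9500 (2.3% of genes), 9500+oil (0.418%) or 9527+oil (2.99%). The log2 fold change of Fcgr2b in the both-sex fits over saline moved most without the 4 libraries, from -0.24 to 0.36 for oil, -0.23 to 0.47 for Corexit 9500, 0.10 to 0.58 for Corexit 9527, -0.53 to 0.02 for 9500+oil and -0.70 to 0.06 for 9527+oil. The comparisons with saline share their control mice and are not independent of each other.

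**Figure D5:**
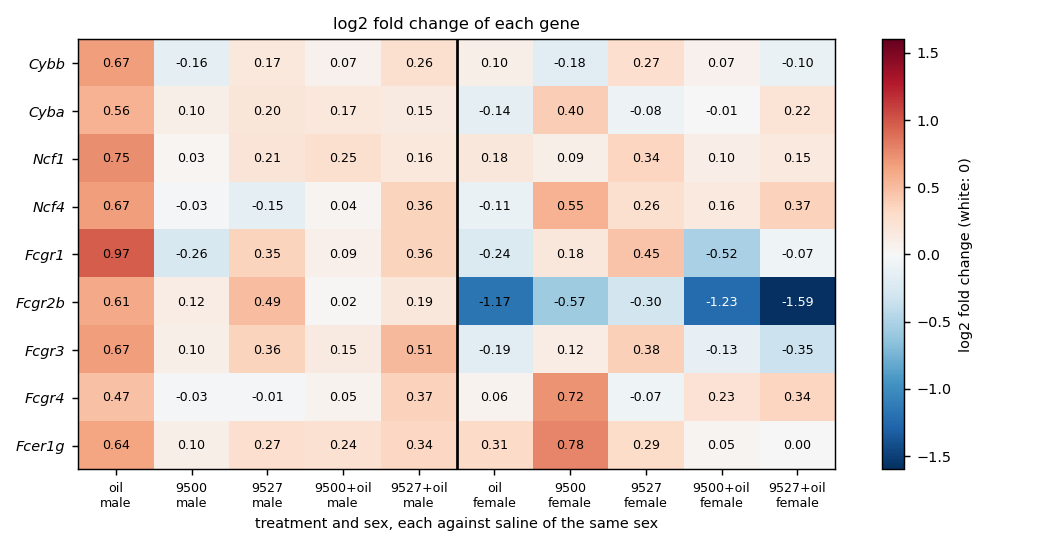
Log2 fold change over saline of the same sex (color and printed value, white at 0) of the 9 genes (rows) for each treatment and sex (columns). The column of oil in male mice holds 0.47 to 0.97, and the Fcgr2b row in female mice holds -1.59 to -0.30, where the control group includes the saline library with 255.7 CPM of Fcgr2b.

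The members varied together across the male mice. Of their 36 pairs all had a positive Pearson's r over the 18 male mice, from 0.41 to 0.87 with a median of 0.72, and 32 had an r over 0.5. The same shares among pairs of other genes were not computed, so these counts do not set the members apart from other genes. Of the 36 pairs, 6 were tested by permutation in each sex, with adjustment over the 12: oxidase subunits of the same part of the complex, Fcer1g with each activating receptor, and the sequence-related receptors Fcgr2b and Fcgr3. In male mice Fcer1g went with Fcgr1 (r = 0.87, permutation p = 1e-05, adjusted 6e-05, and rho = 0.85, permutation p = 2e-05, adjusted 0.00024). It went with Fcgr3 as well (r = 0.84, permutation p = 1e-05, adjusted 6e-05, and rho = 0.79, permutation p = 0.00021, adjusted 0.00111). The value of 1e-05 is the smallest that 100000 permutations can give. Ncf1 went with Ncf4 (r = 0.82, permutation p = 3e-05, adjusted 0.00012, and rho = 0.77, permutation p = 0.00037, adjusted 0.00111), and Fcgr2b with Fcgr3 (r = 0.74, permutation p = 0.00071, adjusted 0.0017, and rho = 0.76, permutation p = 0.00037, adjusted 0.00111). Cybb went with Cyba (r = 0.66, permutation p = 0.0028, adjusted 0.0056, and rho = 0.67, permutation p = 0.00292, adjusted 0.00584).

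Fcer1g and Fcgr4 went together least of these pairs (r = 0.48, permutation p = 0.0412, adjusted 0.0618, and rho = 0.45, permutation p = 0.061, adjusted 0.105). Without the 2 mice farthest from the median of the first gene, r was 0.84 for Fcer1g with Fcgr1, 0.79 for Fcer1g with Fcgr3, 0.72 for Ncf1 with Ncf4 and 0.66 for Fcgr2b with Fcgr3. For Cybb with Cyba it was 0.48 (adjusted permutation p = 0.103) and rho was 0.55 (permutation p = 0.0284, adjusted 0.0568), no longer past the threshold. After the mean of each treatment group was taken away, r was 0.88, 0.80, 0.87 and 0.66 for the first 4 pairs and 0.37 (adjusted permutation p = 0.206) for Cybb with Cyba. The joint variation of the first 4 pairs was thus also present among mice of 1 treatment.

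In female mice Fcgr2b went with Fcgr3 over all 18 libraries (r = 0.79, permutation p = 0.00014, adjusted 0.00042, and rho = 0.75, permutation p = 0.00065, adjusted 0.00156). Ncf1 with Ncf4 had an r of 0.54 (permutation p = 0.0206, adjusted 0.0353) and a rho of 0.30 (permutation p = 0.22, adjusted 0.264), and the r of the other 4 pairs had an adjusted permutation p of 0.0789 to 0.392. Among these, Cybb with Cyba had an r of -0.19 and a rho of -0.37, of the opposite sign to male mice. Its r was -0.27 without the 4 libraries. Without the 4 libraries, Fcgr2b with Fcgr3 had an r of 0.84 and Fcer1g with Fcgr3 an r of 0.82 (both with an adjusted permutation p of 0.00162), whereas Ncf1 with Ncf4 had an r of -0.11. By rank, Fcgr2b with Fcgr3 no longer passed the threshold there (rho = 0.54, permutation p = 0.0475, adjusted 0.0814). Fcer1g with Fcgr3 did (rho = 0.69, permutation p = 0.0081, adjusted 0.0162). Over all 36 pairs r ran from -0.79 to 0.93 with all 18 female mice, with a median of 0.12 and 23 pairs positive. With the 14 it ran from -0.65 to 0.84, with a median of 0.32 and 24 pairs positive. Fcgr2b and Fcgr3 share sequence, as shown by the 129-base run, and the part of shared reads in their correlation was not tested.

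Outside the members, the genes whose log2 CPM was most like the mean z score of the 9 were ranked by the lower of the r values of both tables, over 18 mice in each and 15250 genes. They were Hcls1 (lower r of 0.92), Plbd1 (0.89), Nckap1l (0.83), Apobec1 (0.82) and Mx1 (0.80). Without the 4 female libraries they were Plbd1 (0.91), Sirpb1c (0.89), Hcls1 (0.87), Msrb1 (0.86) and Ccl9 (0.85), so Hcls1 and Plbd1 were named both ways.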

How the data were processed

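Lung RNA of 36 mice was sequenced as poly(A) mRNA, and the authors estimated transcript abundance with Salmon against GRCm38 (named in the submitters' processing notes). They combined it with tximport into the deposited expected counts, in a table for each sex. These are estimated counts, which here were whole numbers and were used as they stood. Samples were assigned from their labels, and 4 rows of each table that share a name were left out (0.0103% and 0.0128% of counts). Genes passing filterByExpr were tested with the quasi-likelihood test of edgeR 4.0.16 (R 4.3.3, TMM scaling, Benjamini-Hochberg adjustment over all genes tested, threshold 0.05) on the mice of the groups compared, with sex as a covariate or in an interaction. CPM use effective library sizes. Alternatives were DESeq2 1.42.0, limma voom 3.58.1, other scalings and filters, all groups in 1 fit and mice left out. Correlations used log2 CPM (prior count of 2) and 100000 permutations (scipy 1.17.1). Scripts were tested on simulated data. Positions, lengths and shared sequence come from GENCODE M21 and promoters from RefSeq. Proteins were not analysed here.

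The members and lists were chosen with earlier results of these data known. The text names the 9 members, in each other list the genes past the adjusted threshold or otherwise the 3 with the smallest p, and the 5 genes most like the members. One gene that the rule names is not reported here. In lists of cell markers only those of the 3 with an unadjusted p under 0.05 are printed. Each mouse is 1 library, and 3 mice per group limit the precision of every fold change.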

Additional observations from a re-analysis of the deposited data

How the results depend on the processing

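The number of members past an adjusted p of 0.05 was computed for 25 comparisons and was the same in 195 of 200 alternative fits and in 251 of 252 fits that left out 1 mouse. It was 0 in every comparison with edgeR and all mice. The exceptions were 5 members for oil in male mice with DESeq2's Wald test, 2 for any difference among the male groups with DESeq2's likelihood ratio test, 1 for Corexit 9527 in both sexes with limma voom and also 1 without the 4 female libraries, 1 for 9527+oil over Corexit 9527 in both sexes with limma voom, and 0 to 1 for 9527+oil in male mice when 1 mouse was left out. The likelihood ratio test took the place of the Wald test where 6 groups were compared. The cause was not tested.

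The direction of the female oil difference of Fcgr2b turned to 0.085 with limma voom and, when 1 mouse was left out, ran from -1.59 to 0.43, the latter without saline mouse 3. In limma voom the number of members above saline moved in female mice from 7 to 4 with Corexit 9500, from 6 to 4 with Corexit 9527, from 5 to 2 with 9500+oil and from 4 to 0 with 9527+oil, in male mice from 9 to 6 with 9500+oil and from 5 to 7 with Corexit 9500, and in both sexes from 6 to 3 with Corexit 9500 and from 7 to 5 with 9500+oil. The number with a larger difference in male mice moved from 2 to 6 for Corexit 9500 and from 3 to 6 for Corexit 9527. For oil it stayed at 9 in male mice and at 9 in the sex difference. The sex difference in the oil response of Fcgr4 ran from -0.28 to 0.98 when 1 mouse was left out. Among the correlations, r of Ncf1 with Ncf4 in female mice was -0.11 without the 4 libraries and 0.084 without the 2 farthest mice, r of Fcer1g with Fcgr4 in female mice was 0.60 for residuals from the group means (adjusted permutation p = 0.0357) and -0.21 without the 2 farthest mice, r of Fcer1g with Fcgr3 in female mice was 0.82 without the 4 libraries, and r of Cybb with Cyba in male mice was 0.37 for residuals and 0.48 without the 2 farthest mice. No paired analysis was possible because the mouse numbers run through the groups of a sex, so the groups compared share none.

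Expected counts of Fcgr2b and Fcgr3 depend on the division of shared reads. In female mice the 4 libraries with many mitochondrial counts include 1 of the 3 saline mice, which limits every female comparison with saline. Sex, table and treatment run cannot be told apart.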
